A study of Saccharomyces cerevisiae with 9 samples.

Results

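Gene expression in yeast exposed to InP/ZnS quantum dots was compared with that of untreated yeast. InP/ZnS quantum dots are semiconductor nanocrystals with an indium phosphide core and a zinc sulfide shell, used as a cadmium-free alternative to CdSe/ZnS. Cells of Saccharomyces cerevisiae, labelled as the reference strain S288C, were in exponential growth on SD-glucose (OD600 between 0.3 and 0.6). The InP/ZnS group received 100 µg/mL of the particles for 6 h at 30 °C with shaking at 220 rpm, and the untreated group received no particles. A label gives the same number in mg/mL, so the unit of the dose rests on the design text. Each group had 3 poly(A)-selected, stranded libraries, amplified for 15 cycles. The values used are 1 pooled FPKM (fragments scaled to transcript length and to all mapped fragments) for each group and gene, so that no value per library, no spread between libraries and no sequencing depth can be given. Of 7042 entries, 6367 had been tested by the authors, and the 5892 tested entries with at least 10 FPKM in the higher group are the genes described here, called members below. A further 475 tested entries lay under that floor. Of the members, 136 reached the floor with InP/ZnS and not in untreated yeast, and 103 reached it in untreated yeast and not with InP/ZnS.

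The labelled strain was checked against mating-type genes. The a-specific genes were abundant, with the pheromone gene MFA1 at 17036 FPKM with InP/ZnS and 21072 FPKM in untreated yeast, and the receptor gene STE2 at 143 FPKM with InP/ZnS and 110 FPKM in untreated yeast. Of the alpha-specific genes, MF(ALPHA)1 had 1.77 FPKM with InP/ZnS and 0.89 FPKM in untreated yeast, STE3 had 3.57 FPKM with InP/ZnS and 4.12 FPKM in untreated yeast, and SAG1 and MF(ALPHA)2 had 39.5 and 51.6 FPKM with InP/ZnS and 32.4 and 55.3 FPKM in untreated yeast. The marker genes URA3 and LEU2, chosen after their values were seen, were near 0, with URA3 at 0.47 FPKM with InP/ZnS and 0.10 FPKM in untreated yeast and LEU2 at 0.13 FPKM with InP/ZnS and 0.11 FPKM in untreated yeast. Of the other marker genes looked up, HIS3 and LYS2 were well expressed. HIS3, in an entry that shares its locus, had 1810 FPKM with InP/ZnS and 2097 FPKM in untreated yeast. LYS2 had 350 FPKM with InP/ZnS and 306 FPKM in untreated yeast. S288C is known as an alpha strain that needs neither uracil nor leucine. The a-specific, URA3 and LEU2 values thus go against the label in both groups alike, while those of HIS3 and LYS2 do not.

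In yeast, many unrelated stresses raise a shared set of genes for chaperones, antioxidant enzymes and the reserve carbohydrates glycogen and trehalose. Much of this set is driven by the transcription factors Msn2 and Msn4, which bind the stress response element in promoters, while chaperone genes are also driven by the heat shock factor Hsf1. Genes for ribosomal proteins and for ribosome assembly usually fall at the same time, as they follow growth rate. Glucose, when plentiful, holds down a partly overlapping set, including high-affinity hexose transporters, respiration and reserve carbohydrate genes.

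A gene is said to have risen or fallen when its q was under 0.05 in the authors' deposited table. By that rule 1452 members rose (24.6%) and 1079 fell (18.3%), 43.0% in either direction. The median log2 ratio of InP/ZnS over untreated was 0.06, with quartiles of -0.28 and 0.39, so most members lay close to equality. Without a test, 331 members (5.62%) were at least 2-fold higher and 183 (3.11%) at least 2-fold lower. The standard error implied by the authors' statistic (log2 ratio over test statistic) had a median of 0.24 log2 units, and 887 called members lay within 0.5 of the median ratio. A normal test of the log2 ratio over that standard error, with Benjamini-Hochberg adjustment, called fewer, 580 members higher (9.84%) and 416 lower (7.06%). The implied standard error does not always match the authors' q. For snR64 it was 0.03 at a log2 ratio of -2.90, while the authors' q was 0.265. After centring on the median ratio these shares were 8.66% and 8.6%, and with the trend in coding length removed 8.2% and 8.62%. Of the 996 calls without centring, 986 were also called in the same direction by the authors' q. Where the authors' q and the normal test without centring give list counts that differ by more than 1.5 times, both are given. For comparison with the list counts, 24.6% of all members rose and 18.3% fell by the authors' q. By the normal test these shares were 9.84% and 7.06%.

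**Figure D1:**
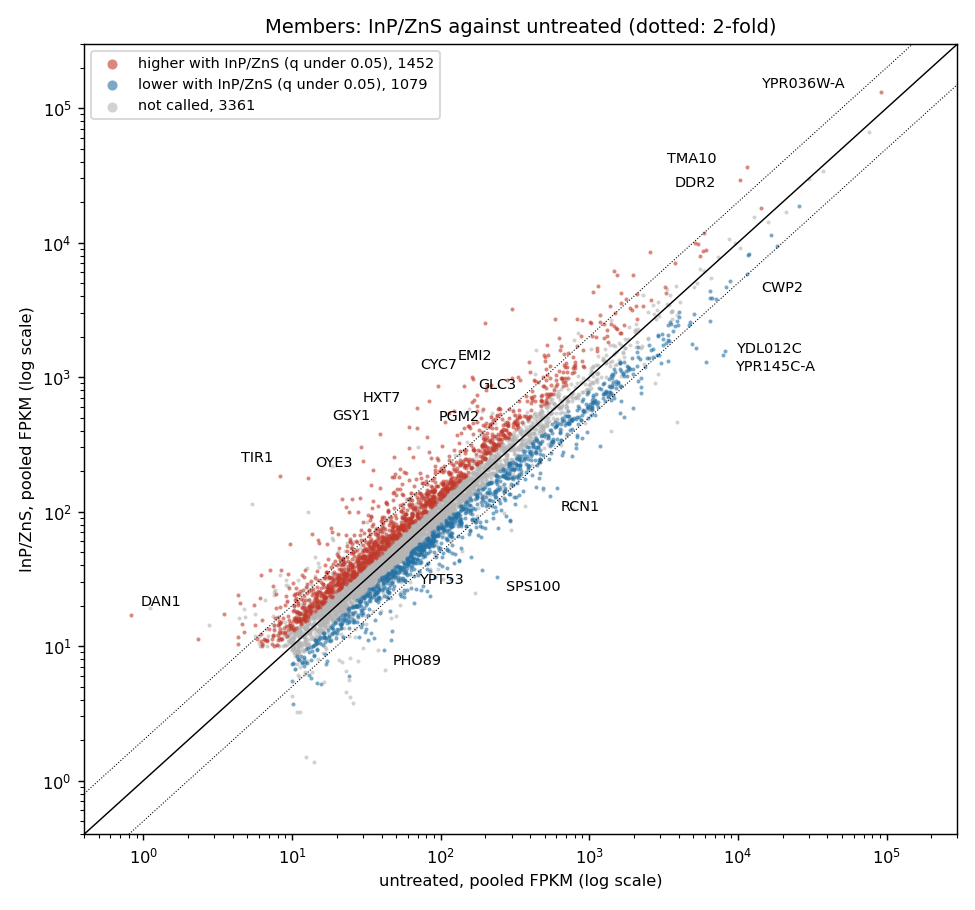
Pooled FPKM of 5892 members with InP/ZnS (vertical axis) and in untreated yeast (horizontal axis), both on log scales. The 1452 higher genes (red) and 1079 lower genes (blue) flank a cloud of 3361 genes that were not called (grey), and named genes such as TIR1, GSY1 and CYC7 lie far above the dotted 2-fold line.

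The strongest rises belonged to cell wall mannoproteins of anaerobic growth, a flavin oxidoreductase, sugar transporters and enzymes of glycogen making. TIR1, at chrV:175248-176012, had 183 FPKM with InP/ZnS and 8.34 FPKM in untreated yeast, a log2 ratio of 4.45 with an implied standard error of 0.34. DAN1, which like TIR1 encodes a wall mannoprotein of oxygen-starved cells, had 17.2 FPKM with InP/ZnS and 0.83 FPKM in untreated yeast, a log2 ratio of 4.37 with an implied standard error of 0.83. TIR1, DAN1 and, further on, CAT8 and FRE2 passed the floor of 10 FPKM only through their InP/ZnS value, and PHO89, PHO81 and RNR1 only through their untreated value, so the choice of members helped to set their direction. This also holds for genes counted in lists below, such as GAC1 and ALR2, which passed only through their InP/ZnS value. OYE3, an NADPH oxidoreductase of the old yellow enzyme family, was at 179 FPKM with InP/ZnS and at 12.7 FPKM in untreated yeast (log2 ratio 3.81, implied standard error 0.27). Among protein-coding genes alone at their locus the next highest were HXT6, GSY1, CYC7, HXT7, PGM2, YNL195C, EMI2, GLC3 and ISF1, all with log2 ratios between 2.59 and 3.39. HXK1 (3.40) and GPH1 (2.99), which share a locus with another entry, lay in the same range. In absolute terms, the largest gains were in short, abundant transcripts. YPR036W-A reached 132333 FPKM with InP/ZnS and 91272 FPKM in untreated yeast, although this rise did not pass the normal test. TMA10, which encodes a ribosome-associated protein, had 36565 FPKM with InP/ZnS and 11488 FPKM in untreated yeast. DDR2, a gene induced by many stresses, had 29376 FPKM with InP/ZnS and 10297 FPKM in untreated yeast.

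The strongest falls were of genes with little in common by name. SPS100, a spore wall gene at chrVIII:378219-379199, had 32.7 FPKM with InP/ZnS and 241 FPKM in untreated yeast (log2 ratio -2.88, implied standard error 0.25). Next came YDL012C, with 1453 FPKM with InP/ZnS and 7901 FPKM in untreated yeast, and YPR145C-A, with 1561 FPKM with InP/ZnS and 8164 FPKM in untreated yeast. YPT53, a Rab-type GTPase of endosomes, had 36.8 FPKM with InP/ZnS and 189 FPKM in untreated yeast. PHO89, a sodium and phosphate cotransporter, had 9.33 FPKM with InP/ZnS and 41.5 FPKM in untreated yeast. RCN1, a regulator of the phosphatase calcineurin, had 130 FPKM with InP/ZnS and 541 FPKM in untreated yeast (log2 ratio -2.06, implied standard error 0.23). JLP1, a sulfonate dioxygenase, fell by 2.03 and OSW2, another spore wall gene, fell by 2.06 on the log2 scale. The largest absolute fall of a called gene was that of RPS29B, a ribosomal protein gene, with 9485 FPKM with InP/ZnS and 18420 FPKM in untreated yeast.

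Promoters of genes that rose carried the stress response element more often than those of other members. The motif, CCCCT on either strand, was searched in the 300 bases before each start codon, in RefSeq sequence of the R64 assembly. Of 5216 entries alone at their locus, 99.7% have the start and end of the RefSeq gene. The motif occurs in 22.2% of 6020 annotated coding genes and in 23.0% of the 5353 protein-coding members. It was present in 47.4% of the 272 promoters of members at least 2-fold higher, in 33.1% of the 1421 that rose, in 19.0% of the 2876 not called, in 20.4% of the 1056 that fell and in 28.1% of the 139 at least 2-fold lower. The share that rose grew with the number of copies. It was 23.1% of 4122 genes without a copy, 34.3% of 1039 with 1 copy, 57.1% of 161 with 2 copies and 71.0% of 31 with 3 or more. The share that fell was 20.4%, 18.2%, 14.9% and 6.45% in the same 4 classes. These shares describe letters in a window, with no test, and do not show that a factor was bound. The promoters of 4 genes that rose are printed from 300 to 101 bases before the start codon, in the direction of the gene, with each copy of the element in capitals (AGGGG is CCCCT on the other strand). PGM2 and CYC7 have 2 copies each, and DDR2 and HSP42, a small heat shock protein gene, have 3 each. The windows are chrXIII:477707-477906 (minus strand), chrV:80078-80277 (minus strand), chrXV:231856-232055 (minus strand) and chrIV:806321-806520 (plus strand).
PGM2: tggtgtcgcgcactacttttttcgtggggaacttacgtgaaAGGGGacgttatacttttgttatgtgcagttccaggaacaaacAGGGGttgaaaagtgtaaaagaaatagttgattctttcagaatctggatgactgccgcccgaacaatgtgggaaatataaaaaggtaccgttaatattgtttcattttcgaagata
CYC7: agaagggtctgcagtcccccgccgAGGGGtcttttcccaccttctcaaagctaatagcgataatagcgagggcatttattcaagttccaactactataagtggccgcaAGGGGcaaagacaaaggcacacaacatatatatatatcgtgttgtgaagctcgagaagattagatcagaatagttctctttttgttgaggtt
DDR2: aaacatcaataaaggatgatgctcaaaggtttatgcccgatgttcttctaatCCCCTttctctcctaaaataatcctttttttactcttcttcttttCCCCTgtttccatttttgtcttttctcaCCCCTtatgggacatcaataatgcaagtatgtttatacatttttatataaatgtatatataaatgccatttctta
HSP42: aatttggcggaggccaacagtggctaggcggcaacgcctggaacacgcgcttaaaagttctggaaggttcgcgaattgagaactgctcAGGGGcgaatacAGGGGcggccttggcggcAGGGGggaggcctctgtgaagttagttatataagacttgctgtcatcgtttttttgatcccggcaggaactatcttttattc

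**Figure D2:**
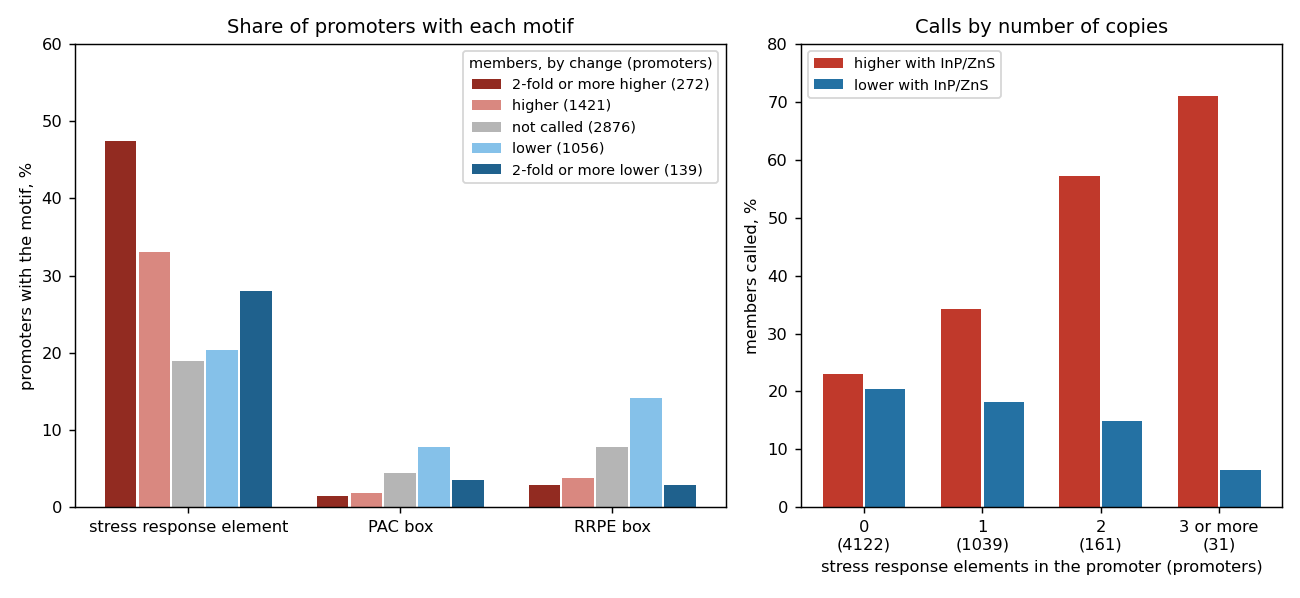
Left, percent of promoters that hold the stress response element, the PAC box or the RRPE box, by how the gene changed with InP/ZnS (numbers of promoters in the legend). Right, percent of members that rose (red) or fell (blue) by the number of stress response elements, where the share that rose was 23.1% without a copy and 71.0% with 3 or more.

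Genes of reserve carbohydrates rose almost without exception. All 10 glycogen genes among the members rose in the authors' deposited table, with a median log2 ratio of 1.96 against 0.06 over all members. GAC1 was a member only through its InP/ZnS value, with 26.9 FPKM with InP/ZnS and 9.50 FPKM in untreated yeast. A listed glycogen gene under the floor, PIG1, was not a member. It was lower but not called, with 3.92 FPKM with InP/ZnS and 5.33 FPKM in untreated yeast. GSY1 and GSY2 encode glycogen synthase. GSY1 had 377 FPKM with InP/ZnS and 38.8 FPKM in untreated yeast, and GSY2 had 740 FPKM with InP/ZnS and 177 FPKM in untreated yeast. The branching enzyme gene GLC3 had 865 FPKM with InP/ZnS and 143 FPKM in untreated yeast. Genes for breakdown were also higher. GPH1, glycogen phosphorylase, had 238 FPKM with InP/ZnS and 30.0 FPKM in untreated yeast, in an entry that shares its locus with another, and the debranching enzyme gene GDB1 had 204 FPKM with InP/ZnS and 35.0 FPKM in untreated yeast. The initiator genes GLG1 and GLG2 and the phosphatase regulator GLC8 were less changed, at log2 ratios of 0.90, 0.41 and 0.34.

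Of 10 trehalose genes, 9 rose in the authors' deposited table and none fell, with a median log2 ratio of 1.36. PGM2, the main phosphoglucomutase, which supplies glucose 1-phosphate for both reserve carbohydrates, had 663 FPKM with InP/ZnS and 83.7 FPKM in untreated yeast. Its minor isozyme gene PGM1 was not called, with 54.3 FPKM with InP/ZnS and 63.7 FPKM in untreated yeast. UGP1, which makes UDP-glucose, had 609 FPKM with InP/ZnS and 175 FPKM in untreated yeast, in an entry that shares its locus. The trehalose synthase genes TPS1, TPS2, TSL1 and TPS3 had log2 ratios of 1.31, 1.49, 1.40 and 0.79. The trehalases NTH1, NTH2 and ATH1, which degrade trehalose, had log2 ratios of 0.84, 1.15 and 1.45. Synthesis and breakdown genes of both reserve carbohydrates were thus higher together.

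Most genes of heat shock chaperones rose. By the authors' deposited table, 25 of 29 cytosolic chaperone genes rose and 2 fell (22 and 1 by the normal test), with a median log2 ratio of 1.15, and 19 were at least 2-fold higher. SSA4, a stress-induced Hsp70, had 961 FPKM with InP/ZnS and 166 FPKM in untreated yeast. HSP42 had 5698 FPKM with InP/ZnS and 1542 FPKM in untreated yeast, and the disaggregase HSP104 had 1952 FPKM with InP/ZnS and 630 FPKM in untreated yeast. The Hsp90 genes HSP82 and HSC82 had log2 ratios of 1.75 and 1.44, and their cochaperones STI1, AHA1 and CPR6 had log2 ratios of 1.57, 1.15 and 1.59. The 2 that fell were SSB1 and SSB2, near-identical Hsp70s that work on the ribosome. SSB2 had 210 FPKM with InP/ZnS and 343 FPKM in untreated yeast. The heat shock element, searched as GAANNTTC on either strand, was present in 10 of these 29 promoters and in 11.8% of all members, and all 10 of those genes rose. Of the 19 chaperone genes without it, 15 rose and 2 fell.

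In the lists for mitochondria and the endoplasmic reticulum the share that rose was near the 24.6% of all members. Of 24 genes for mitochondrial chaperones and import, 6 rose (25%) and 6 fell (25%, beside 18.3% of all members) in the authors' deposited table. Their median log2 ratio was -0.10. Those higher included the chaperones HSP78 (log2 ratio 1.39), MDJ1 (1.01), SSC1 (0.80) and HSP60 (0.73). Those lower were subunits of the import machinery, such as TOM20 (-0.76) and TIM23 (-0.59). By the normal test 4 rose and 1 fell. In the endoplasmic reticulum 4 of 19 folding genes rose (21.1%) in the authors' deposited table and none fell, with a median log2 ratio of 0.03. The Hsp70 gene KAR2 led, with 495 FPKM with InP/ZnS and 187 FPKM in untreated yeast, while the protein disulfide isomerase gene PDI1 was not called, with 355 FPKM with InP/ZnS and 510 FPKM in untreated yeast and a shared locus.

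**Figure D3:**
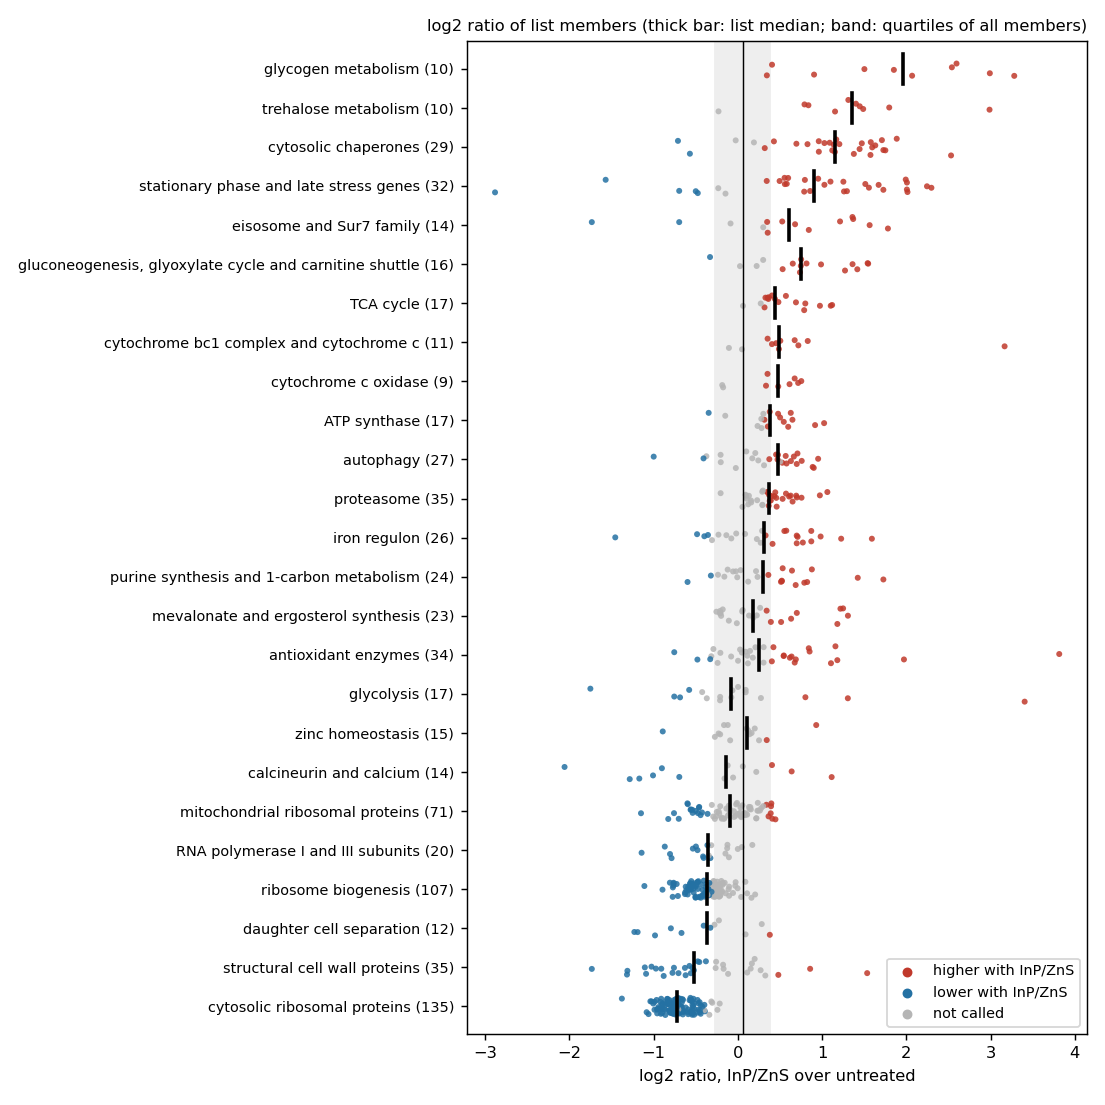
log2 ratio of InP/ZnS over untreated for the members of selected gene lists (number of members in parentheses), each point a gene, red where it rose and blue where it fell. Thick bars are list medians, from 1.96 for glycogen metabolism to -0.72 for cytosolic ribosomal proteins. The vertical line at 0.06 and the band from -0.28 to 0.39 are the median and quartiles of all members.

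Genes known from late stress and stationary phase rose in 25 of 32 cases and fell in 5 in the authors' deposited table (19 and 3 by the normal test), with a median log2 ratio of 0.91. HSP12, a membrane-associated stress protein gene, had 8460 FPKM with InP/ZnS and 2556 FPKM in untreated yeast. FMP16 had 4273 FPKM with InP/ZnS and 1059 FPKM in untreated yeast, and RTN2, a reticulon gene, had 537 FPKM with InP/ZnS and 113 FPKM in untreated yeast. The members that fell were SPS100, GRE1 (log2 ratio -1.57), FMP45 (-0.70), XBP1 (-0.50) and SPI1 (-0.48). The list as a whole made up 7.91% of the summed FPKM with InP/ZnS and 4.70% in untreated yeast, a share carried by a few short transcripts such as TMA10, DDR2 and HOR7. HOR7 itself was not called, at 33836 FPKM with InP/ZnS and 37458 FPKM in untreated yeast.

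Antioxidant genes split by enzyme. Of 34, 15 rose and 3 fell in the authors' deposited table, and 9 rose and 1 fell by the normal test, with a median log2 ratio of 0.26. OYE3 led, followed by the cytosolic catalase gene CTT1, with 256 FPKM with InP/ZnS and 65.4 FPKM in untreated yeast. The mitochondrial peroxiredoxin gene PRX1 and the glutaredoxin gene GRX4 had log2 ratios of 1.16 and 1.10. The abundant thioredoxin-system genes TSA1, TRX2 and TRR1 were not called, at log2 ratios of -0.29, -0.08 and -0.31, and neither was the copper and zinc superoxide dismutase gene SOD1, at 0.12. OYE2, a close relative of OYE3, fell, with 512 FPKM with InP/ZnS and 714 FPKM in untreated yeast. Among 26 genes of stress signalling and the protein kinase A pathway, 10 rose (38.5%) and 5 fell (19.2%) in the authors' deposited table. The shares over all members were 24.6% and 18.3%. By the normal test 4 rose and 1 fell. The transcripts of the factors MSN2 and MSN4 did not rise: MSN2 had 41.8 FPKM with InP/ZnS and 57.2 FPKM in untreated yeast, a fall, and MSN4 had 137 FPKM with InP/ZnS and 160 FPKM in untreated yeast, not called. GIS1, a related zinc finger factor, rose by a log2 ratio of 1.43.

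Sugar entry and its first step shifted between isoforms. HXT6 and HXT7 encode high-affinity hexose transporters so alike that reads may be split between them. HXT7 had 594 FPKM with InP/ZnS and 68.9 FPKM in untreated yeast, and HXT6 had 303 FPKM with InP/ZnS and 29.0 FPKM in untreated yeast. HXT1, a low-affinity transporter of high glucose, had 241 FPKM with InP/ZnS and 462 FPKM in untreated yeast and fell, while HXT3, the most abundant of the family, was not called, with 2702 FPKM with InP/ZnS and 2824 FPKM in untreated yeast. HXK1, hexokinase 1, had 3189 FPKM with InP/ZnS and 301 FPKM in untreated yeast, and the glucokinase gene GLK1 had 2533 FPKM with InP/ZnS and 1025 FPKM in untreated yeast. HXK2, hexokinase 2, which predominates in high glucose, was not called, with 425 FPKM with InP/ZnS and 491 FPKM in untreated yeast. HXK1 and GLK1 share their loci with other entries, so their values may hold reads of a neighbour. SUC2, invertase, and MIG2, a glucose-dependent repressor, were chosen after their values were seen. SUC2 rose, with 69.0 FPKM with InP/ZnS and 30.6 FPKM in untreated yeast. MIG2 fell, with 86.4 FPKM with InP/ZnS and 295 FPKM in untreated yeast.

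The trunk of glycolysis moved little or fell. Of 17 glycolytic genes 3 rose (17.6%) and 4 fell (23.5%) in the authors' deposited table, beside 24.6% and 18.3% of all members. The median log2 ratio was -0.08, and all 3 that rose (HXK1, GLK1 and PGK1) share a locus. TDH1, an isoform of glyceraldehyde 3-phosphate dehydrogenase, had 505 FPKM with InP/ZnS and 1700 FPKM in untreated yeast. ENO1, TDH2 and FBA1 fell by 0.75, 0.69 and 0.58 on the log2 scale. In the branch from pyruvate to ethanol and acetate, PDC1, the main pyruvate decarboxylase, had 2561 FPKM with InP/ZnS and 4789 FPKM in untreated yeast, and PDC6 and PDC5 fell too. ALD4, a mitochondrial aldehyde dehydrogenase gene, had 558 FPKM with InP/ZnS and 123 FPKM in untreated yeast, whereas its relatives ALD5 and ALD6 fell, ALD5 to 493 FPKM with InP/ZnS, against 984 FPKM in untreated yeast. The main alcohol dehydrogenase gene ADH1 was not called (log2 ratio -0.20).

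Most respiratory genes rose by modest amounts in the authors' deposited table, and fewer by the normal test. In the TCA cycle 15 of 17 members rose in the authors' deposited table and none fell, with a median log2 ratio of 0.44, and 6 rose by the normal test. ACO1, aconitase, had 432 FPKM with InP/ZnS and 199 FPKM in untreated yeast, and CIT1, citrate synthase, had 480 FPKM with InP/ZnS and 224 FPKM in untreated yeast. In the cytochrome bc1 complex with cytochrome c 9 of 11 rose (4 by the normal test), in cytochrome c oxidase 7 of 9 (3), and in the ATP synthase 11 of 17, with 1 lower (2 and none), with the authors' deposited table first and the normal test in parentheses. The medians of these lists were 0.49, 0.48 and 0.38. Isoforms differed within them. CYC7, the minor cytochrome c isoform known from low oxygen and stress, had 864 FPKM with InP/ZnS and 96.3 FPKM in untreated yeast, while CYC1, the major isoform, was not called, with 103 FPKM with InP/ZnS and 111 FPKM in untreated yeast. COX5B, the low-oxygen form of an oxidase subunit, had 1193 FPKM with InP/ZnS and 708 FPKM in untreated yeast, while COX5A was not called, with 468 FPKM with InP/ZnS and 532 FPKM in untreated yeast. In the ATP synthase the 2 largest log2 ratios were those of STF1 (1.02) and STF2 (0.92), which act with its inhibitor. The CCAAT letters that the Hap complex reads, searched on either strand, were found in 14 of 17 TCA cycle promoters, 8 of 9 oxidase promoters and 16 of 17 ATP synthase promoters, beside 42.4% of all members. Of the 16 ATP synthase genes with the letters 10 rose and 1 fell in the authors' deposited table, with a median log2 ratio of 0.37. The 1 without them, STF1, had the largest log2 ratio of the list (1.02).

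Most genes for growth on carbon sources other than glucose were higher as well. Of 16 members of gluconeogenesis, the glyoxylate cycle and the carnitine shuttle, 12 rose and 1 fell in the authors' deposited table (10 and none by the normal test), with a median log2 ratio of 0.75. The carnitine genes CRC1, CAT2 and YAT1 had log2 ratios of 1.55, 1.54 and 1.42. CAT2 had 93.7 FPKM with InP/ZnS and 32.2 FPKM in untreated yeast. ICL1, isocitrate lyase, had 322 FPKM with InP/ZnS and 133 FPKM in untreated yeast, and CAT8, a regulator of this group, had 23.5 FPKM with InP/ZnS and 9.14 FPKM in untreated yeast. The gluconeogenic gene PCK1 was not called, with 20.5 FPKM with InP/ZnS and 17.6 FPKM in untreated yeast. In peroxisomal fatty acid oxidation 9 of 22 rose and none fell in the authors' deposited table (4 by the normal test), led by the acyl-CoA synthetase gene FAA2 (log2 ratio 1.29) and the oxidase gene POX1 (0.99). Of 10 glycerol genes, those of use, GUT1 and GUT2, rose (0.80 and 0.96). GPD1 (1.21), the first enzyme of glycerol making, also rose, in an entry that shares its locus. The glycerol phosphatase genes RHR2 and HOR2 fell by 1.18 and 0.86 on the log2 scale.

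**Figure D4:**
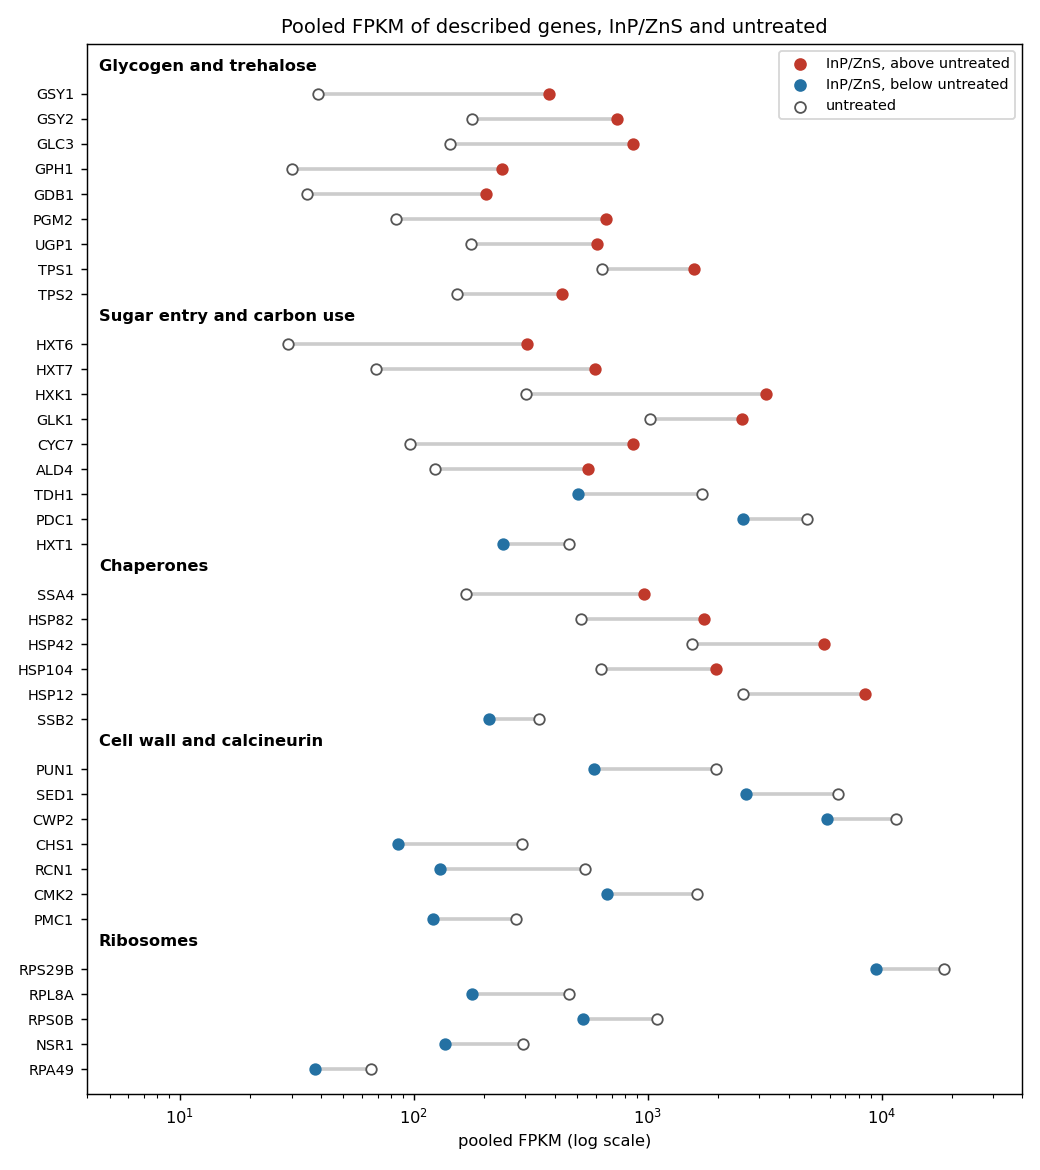
Pooled FPKM on a log scale of described genes, with InP/ZnS as filled points (red above and blue below untreated) and untreated yeast as open points. Genes of glycogen and trehalose lie above untreated, and those of the cell wall, calcineurin and ribosomes lie below.

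Cytosolic ribosomal protein genes fell nearly throughout. By the authors' deposited table, 128 of 135 fell and none rose, and 90 fell by the normal test. The median log2 ratio was -0.72 and the range ran from -1.38 to -0.22, so all 135 lay below untreated. The share of the summed FPKM held by these genes was 8.64% with InP/ZnS and 14.4% in untreated yeast. RPL8A was the lowest, with 177 FPKM with InP/ZnS and 458 FPKM in untreated yeast. RPS0B had 527 FPKM with InP/ZnS and 1099 FPKM in untreated yeast, and RPL10, the least changed, had 3049 FPKM with InP/ZnS and 3540 FPKM in untreated yeast. Reads of paralogous pairs, which are common in this list, may be split between both copies. Mitochondrial ribosomal protein genes were mixed, with 7 of 71 higher and 17 lower in the authors' deposited table (none and 2 by the normal test) and a median log2 ratio of -0.09.

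Many genes of ribosome assembly were lower too, with a median nearer to 0. Of 107 ribosome biogenesis genes 59 fell and none rose in the authors' deposited table, and 12 fell by the normal test, with a median log2 ratio of -0.36. NSR1, a nucleolar protein gene, had 136 FPKM with InP/ZnS and 294 FPKM in untreated yeast, and NOP10, a small snoRNP subunit gene, had 3816 FPKM with InP/ZnS and 7094 FPKM in untreated yeast. Of 20 subunits of RNA polymerases I and III, 11 fell and none rose in the authors' deposited table (2 by the normal test), among them RPA49, a polymerase I subunit, with 37.6 FPKM with InP/ZnS and 65.7 FPKM in untreated yeast. Among 38 translation factors 15 fell and 1 rose in the authors' deposited table (1 and 1 by the normal test), and of 20 aminoacyl-tRNA synthetases 1 rose and 1 fell (none and 1). The known letters of these promoters were present: the PAC box (GCGATGAG) in 50.5% and the RRPE box (AAAAATTTT) in 62.6% of the 107 ribosome biogenesis promoters, beside 4.43% and 7.996% of all members. Biogenesis genes with and without the PAC box had median log2 ratios of -0.37 (30 of 54 fell) and -0.36 (29 of 53 fell), and those with and without the RRPE box of -0.40 (43 of 67 fell) and -0.28 (16 of 40 fell). The promoter of RPA49 holds both, with no shared base, the RRPE box on the other strand as AAAATTTTT and then the PAC box, in capitals here (chrXIV:182709-182908, minus strand, 300 to 101 bases before the start codon).
RPA49: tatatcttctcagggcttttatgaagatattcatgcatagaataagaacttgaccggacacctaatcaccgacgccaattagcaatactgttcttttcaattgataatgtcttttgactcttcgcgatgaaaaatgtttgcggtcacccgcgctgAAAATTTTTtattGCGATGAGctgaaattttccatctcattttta

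Most structural cell wall genes fell. Of 35 structural wall proteins 21 fell and 3 rose in the authors' deposited table (13 and 2 by the normal test), with a median log2 ratio of -0.52, and the summed share of FPKM was 2.70% with InP/ZnS and 3.89% in untreated yeast. SED1, an abundant wall protein gene, had 2630 FPKM with InP/ZnS and 6523 FPKM in untreated yeast. CWP2 had 5857 FPKM with InP/ZnS and 11492 FPKM in untreated yeast. PUN1, counted both here and in the list of the eisosome and Sur7 family of the membrane, had 590 FPKM with InP/ZnS and 1961 FPKM in untreated yeast. CCW12, the most abundant of the list, fell in the authors' deposited table (18761 FPKM with InP/ZnS and 25766 FPKM in untreated yeast) but did not pass the normal test (adjusted p = 0.341). Of the 3 in this list that rose, TIP1, a mannoprotein gene of the TIR family, had the largest log2 ratio. TIP1 had 5702 FPKM with InP/ZnS and 1968 FPKM in untreated yeast. TIR1, TIR2 and TIR3 rose too in the authors' deposited table, but TIR3 did not pass the normal test (adjusted p = 0.0715). TIR4 was not called (log2 ratio 0.32). Wall synthesis was divided: CHS1, a chitin synthase used in repair, had 85.4 FPKM with InP/ZnS and 291 FPKM in untreated yeast, whereas the chitin synthase genes CHS2 and CHS3 rose by log2 ratios of 0.53 and 0.36. Of 12 genes for the separation of daughter cells 7 fell and 1 rose in the authors' deposited table (5 and none by the normal test), including EGT2 (log2 ratio -1.23), ASH1 (-1.19) and SCW11 (-0.98). Beneath the wall, the eisosome genes LSP1 (1.56), NCE102 (1.37) and PIL1 (0.53) rose, and 10 of 14 members of that list rose in the authors' deposited table, with PUN1 and FMP45 lower.

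Several genes of calcineurin signalling fell. Of 14 calcium and calcineurin genes 6 fell and 3 rose in the authors' deposited table, and all 6 falls passed the normal test. After RCN1 came CMK2, a calmodulin kinase gene, with 669 FPKM with InP/ZnS and 1629 FPKM in untreated yeast, and PMC1, the vacuolar calcium pump gene, with 121 FPKM with InP/ZnS and 273 FPKM in untreated yeast. CRZ1, the transcription factor that calcineurin activates, had 65.6 FPKM with InP/ZnS and 132 FPKM in untreated yeast. CNB1, the regulatory subunit, and RCN2 fell by 0.90 and 0.70 on the log2 scale. The kinase gene CMK1 and the catalytic subunit gene CNA1 rose, at log2 ratios of 1.11 and 0.64.

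Metal genes showed no common direction. Of 15 zinc genes 2 rose (13.3%) and 1 fell (6.67%) in the authors' deposited table, beside 24.6% and 18.3% of all members. By the normal test 1 rose and 1 fell, and the median log2 ratio was 0.10. ZRT1, the high-affinity zinc uptake transporter, had 64.7 FPKM with InP/ZnS and 120 FPKM in untreated yeast and fell, while its regulator ZAP1 (log2 ratio -0.12), the low-affinity transporter ZRT2 (-0.16) and the vacuolar exporter ZRT3 (-0.21) were not called. ZRC1, which stores zinc in the vacuole, had 184 FPKM with InP/ZnS and 145 FPKM in untreated yeast, a rise that did not pass the normal test. IZH2, a membrane protein gene of zinc and lipid response, had 42.0 FPKM with InP/ZnS and 22.03 FPKM in untreated yeast. ADH4, ZPS1, COT1, MSC2, ZRG17, ZRG8, INO1, IZH1 and IZH3 were not called, with log2 ratios between -0.27 and 0.25.

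Of 10 copper genes 2 rose and 2 fell (20% each) in the authors' deposited table, beside 24.6% and 18.3% of all members. The copper uptake genes CTR1 and CTR3 rose. CTR1 had 75.1 FPKM with InP/ZnS and 18.3 FPKM in untreated yeast, in an entry that shares its locus, and CTR3 had 30.2 FPKM with InP/ZnS and 13.4 FPKM in untreated yeast. CRS5, a metallothionein gene, and CUP2, the copper-binding regulator of metallothioneins, fell. CRS5 had 746 FPKM with InP/ZnS and 1388 FPKM in untreated yeast. CUP2, in an entry that shares its locus, had 221 FPKM with InP/ZnS and 386 FPKM in untreated yeast. The metallothionein genes CUP1-1 and CUP1-2, near-identical copies, were listed at 0 in both groups. COX17, ATX1, CCC2, CTR2, MAC1 and CCS1 were not called, with log2 ratios between -0.16 and 0.43.

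In the iron regulon 13 of 26 rose and 4 fell in the authors' deposited table (9 and 1 by the normal test). FIT2, a wall mannoprotein gene that retains iron chelates, had 307 FPKM with InP/ZnS and 102 FPKM in untreated yeast. The reductase gene FRE2 and the siderophore transporter genes SIT1 and ARN2 had log2 ratios of 1.23, 0.98 and 0.87. The high-affinity uptake pair did not follow: FET3, the ferroxidase, was not called, with 182 FPKM with InP/ZnS and 151 FPKM in untreated yeast, and FTR1, the permease, fell by 0.35 on the log2 scale. TIS11, an mRNA-binding regulator of iron scarcity, had 27.9 FPKM with InP/ZnS and 76.5 FPKM in untreated yeast. The Aft1 letters TGCACCC, on either strand, were present in 13 of the 26 promoters and in 1.42% of all members. Of those 13 genes 7 rose and 2 fell, and of the other 13 there were 6 that rose and 2 that fell. The promoter of FIT2 has 3 copies, in capitals (chrXV:1059231-1059430, plus strand, 300 to 101 bases before the start codon).
FIT2: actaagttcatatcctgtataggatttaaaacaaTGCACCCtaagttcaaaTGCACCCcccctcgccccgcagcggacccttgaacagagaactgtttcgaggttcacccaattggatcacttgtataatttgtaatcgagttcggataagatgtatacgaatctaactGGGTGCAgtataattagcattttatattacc

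Of 11 transporters of metals and conjugates 5 rose and 2 fell in the authors' deposited table, but by the normal test 1 rose and none fell. ALR2, among the 5, was a member only through its InP/ZnS value (14.2 FPKM with InP/ZnS and 9.13 FPKM in untreated yeast). YCF1, the vacuolar pump for glutathione conjugates, had 67.0 FPKM with InP/ZnS and 45.3 FPKM in untreated yeast, with an adjusted p of 0.0891 in the normal test. In multidrug efflux 10 of 23 rose (43.5%) and 4 fell (17.4%, beside 18.3% of all members) in the authors' deposited table (3 and 4 by the normal test). YOR1 had the largest log2 ratio (1.27), PDR5 was not called (0.31), and AQR1 and TPO2 fell by 1.86 and 1.82 on the log2 scale. The phosphate regulon had 7 lower and 1 higher of 21 in the authors' deposited table (1 and none by the normal test). PHO89 was the one that fell by both tests, while PHO84, the main high-affinity phosphate transporter, had 32.0 FPKM with InP/ZnS and 43.9 FPKM in untreated yeast and did not pass the normal test. The secreted phosphatase gene PHO5 was not called, with 22.1 FPKM with InP/ZnS and 18.2 FPKM in untreated yeast. The phosphate genes PHO80, PHO81, PHO87, PHO91, PHO4 and VTC1 had log2 ratios of 0.58, -0.47, -0.34, -0.56, -0.41 and -0.61.

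In the proteasome 21 of 35 rose and none fell in the authors' deposited table (6 by the normal test), with a median log2 ratio of 0.37. Their transcription factor gene RPN4 had 447 FPKM with InP/ZnS and 214 FPKM in untreated yeast, and the lid subunit gene RPN8 had 231 FPKM with InP/ZnS and 118 FPKM in untreated yeast. In autophagy 15 of 27 rose and 2 fell in the authors' deposited table (6 and 1 by the normal test). ATG7 had 26.0 FPKM with InP/ZnS and 13.4 FPKM in untreated yeast, while ATG5 had 111 FPKM with InP/ZnS and 221 FPKM in untreated yeast. Among vacuolar proteases PEP4 rose (log2 ratio 0.67) and PRB1 and CPS1 fell by 0.75 and 0.83 on the log2 scale. In endocytosis 11 of 33 fell and 2 rose in the authors' deposited table (2 and 1 by the normal test), with a median log2 ratio of -0.05 and 16 members above 0.

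Among biosynthetic lists, the glycine cleavage genes GCV1 and GCV2 rose. GCV1 had 1291 FPKM with InP/ZnS and 390 FPKM in untreated yeast, and GCV2 had 252 FPKM with InP/ZnS and 94.1 FPKM in untreated yeast. In that list of purine and 1-carbon metabolism 12 of 24 rose and 2 fell in the authors' deposited table (6 and 1 by the normal test). In ergosterol synthesis 9 of 23 rose and none fell in the authors' deposited table (6 by the normal test). The late-step genes ERG5, ERG3, ERG28 and ERG4 had log2 ratios from 1.18 to 1.31, and ERG11 and ERG1 were not called (-0.21 and -0.01). Among 54 amino acid synthesis genes 6 rose (11.1%) and 7 fell (13.0%) in the authors' deposited table, and none and 3 by the normal test. Among 26 of sulfur assimilation 7 rose and 7 fell (26.9% each), and 2 and 3 by the normal test. Over all members 24.6% rose and 18.3% fell in the authors' deposited table. Of 13 genes of ribonucleotide reductase and DNA damage, RAD54 (log2 ratio 1.21), DIN7 (1.18), MAG1 (1.04) and PHR1 (0.86) rose, while 4 fell in the authors' deposited table and none by the normal test, among them RNR1 (-0.64) and RNR4 (-0.54), which encode reductase subunits. CLN3, the G1 cyclin that sets the size for entry into the cell cycle, had 23.4 FPKM with InP/ZnS and 56.5 FPKM in untreated yeast.

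CdSe/ZnS, the other particle of the study, was given at 10 µg/mL for 6 h against the same untreated libraries. The doses differ and the tables were normalized separately, with untreated FPKM a median of 1.14 times higher in the InP/ZnS table, so values are set side by side and no difference was tested. The median log2 ratio over members was 0.06 with InP/ZnS and -0.37 with CdSe/ZnS, and the medians below are relative to these. In the authors' deposited table for CdSe/ZnS 9.64% of members rose and 46.2% fell, 55.8% in either direction, and 2.4% were at least 2-fold higher and 16.5% at least 2-fold lower. Glycogen genes stood at 1.90 with InP/ZnS and 1.003 with CdSe/ZnS, cytosolic chaperones at 1.09 with InP/ZnS and 0.75 with CdSe/ZnS, and cytosolic ribosomal proteins at -0.78 with InP/ZnS and -0.47 with CdSe/ZnS. Late stress genes stood at 0.85 with InP/ZnS and -0.08 with CdSe/ZnS, cytochrome c oxidase at 0.42 with InP/ZnS and -0.65 with CdSe/ZnS, and the proteasome at 0.31 with InP/ZnS and -0.43 with CdSe/ZnS. The rank correlation (Spearman) of coding length and log2 ratio was 0.12 with InP/ZnS and 0.36 with CdSe/ZnS. These medians are not corrected for length. The cytochrome c oxidase genes are short, from 180 bp (COX9) to 468 bp (COX4), as is CYC7 (342 bp). What part of the differences goes with length was not tested. Single genes are given first as measured, not relative to the medians. CYC7 had log2 ratios of 3.17 with InP/ZnS and -0.15 with CdSe/ZnS, where it was not called. TMA10 had 1.67 with InP/ZnS and -1.36 with CdSe/ZnS, and TIR1 had 4.45 with InP/ZnS and 3.05 with CdSe/ZnS. Relative to the medians, CYC7 stood at 3.11 with InP/ZnS and 0.22 with CdSe/ZnS. TIR1 stood at 4.40 with InP/ZnS and 3.42 with CdSe/ZnS on that scale.

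**Figure D5:**
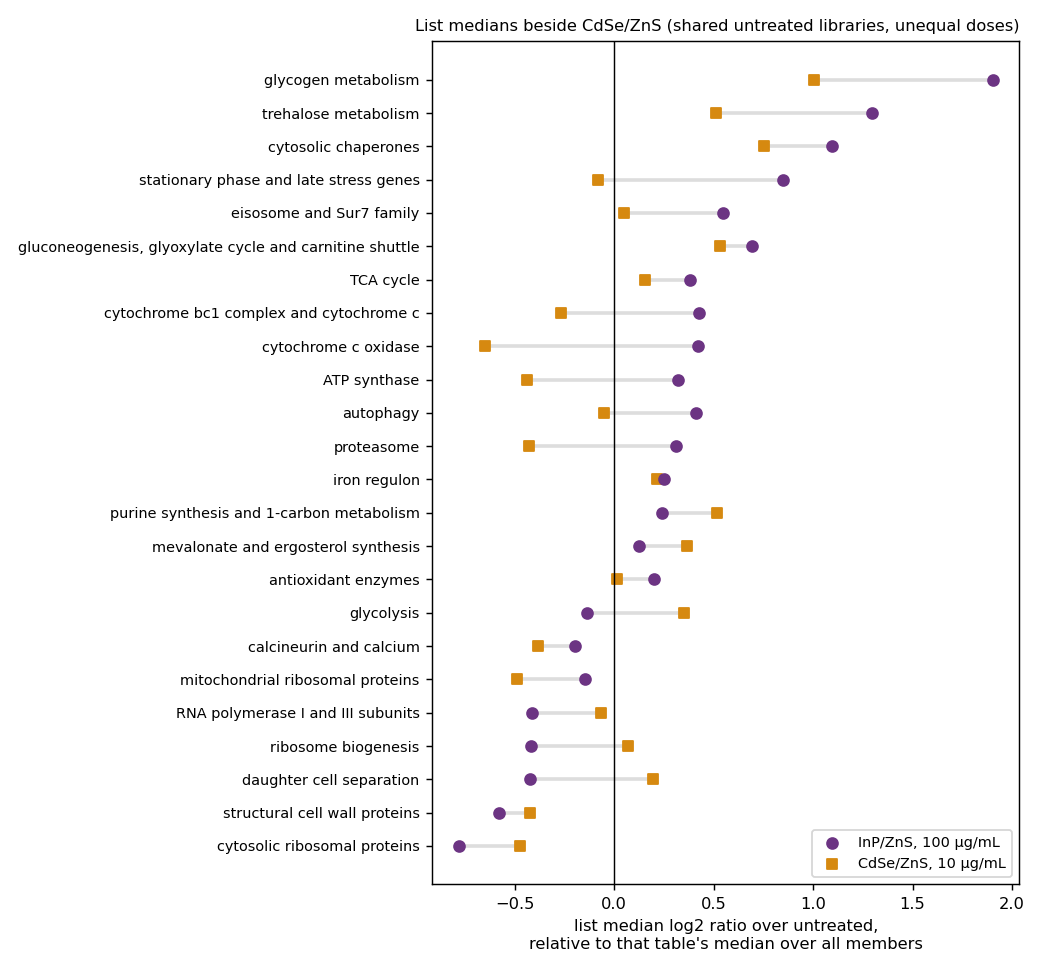
Median log2 ratio over untreated of selected gene lists, relative to the median of all members of the same table, with InP/ZnS at 100 µg/mL (circles) and CdSe/ZnS at 10 µg/mL (squares). Both share the untreated libraries, the doses differ and the medians are not corrected for coding length. Glycogen, trehalose and chaperone lists lie above 0 and ribosomal proteins and cell wall below 0 in both, while cytochrome c oxidase lies at 0.42 with InP/ZnS and -0.65 with CdSe/ZnS.

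With 1 pooled value per group, a difference could not be set against the spread between libraries, and the authors' q and the standard error implied by their statistic were the only measures of error. FPKM gives shares of the sequenced RNA, so a change in RNA per cell could not be seen. The log2 ratio varied with coding length, with a median of -0.08 for 246 members of up to 300 bp and of 0.18 for those over 3000 bp. With that trend removed, cytosolic ribosomal proteins had a median of -0.68 and glycogen genes of 1.86.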

How the data were processed

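RNA from 3 InP/ZnS and 3 untreated libraries of yeast was sequenced by the submitters, who, per the submitters' processing notes, used TopHat and Cuffdiff. Versions, annotation and genome build were not given in the sources used here. The deposited table, per the file headers, holds for each entry 1 pooled FPKM per group, the authors' log2 fold change, a test statistic (a score), a p-value and a q-value. FPKM is scaled by the authors to transcript length and mapped fragments, so a rise of abundant transcripts lowers the values of others. Which column is treated follows from the deposited lists of changed genes, where all 1522 higher and none of 1096 lower entries had the second value above the first.

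Members were tested rows with at least 10 FPKM in the higher group. log2 ratios, their centring on the members' median, standard errors implied by the score, a normal test with Benjamini-Hochberg adjustment, removal of the trend with coding length in 20 bins, and promoter searches were computed with Python 3.11.15, pandas 2.3.3, numpy 2.4.6 and scipy 1.17.1, and figures with matplotlib 3.10.9. The normal test was tried on simulated data. Their noise was drawn from the same implied standard errors, so that trial cannot show whether these errors match the real spread. Single-library columns were not found, so the design's leave-one-out and blocked fits could not be run. Members and the gene lists were chosen with earlier results of these data known. Genes named were the 12 highest and 12 lowest protein-coding called members alone at their locus, up to 4 called members per list with the largest change, genes of the zinc, copper and phosphate lists, and the 5 largest rises and falls in FPKM. Others named in a list were chosen after their values were seen, to describe isoforms, pathway steps or members that were not called. Nothing says that the libraries came from separate cultures, so the p-values may reflect technical spread alone. Depth is unknown. Entries that share a locus (17.5% of members) may share reads, and not every such gene is marked in the text.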

Additional observations from a re-analysis of the deposited data

How the results depend on the processing

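No paired analysis was possible because each group has 1 pooled value per gene, and for the same reason leaving out each replicate was not run. Genes higher and lower numbered 1452 and 1079 by the authors' deposited q. Asking also for a 2-fold difference left 274 and 137, and a floor of 50 FPKM left 939 higher. The normal test on the implied standard error gave 580 higher and 416 lower as measured, 510 and 507 after centring on the median, 483 and 508 with the length trend removed, and 540 and 452 on TPM. Members at least 2-fold higher numbered 331, and 218 with a pseudocount of 10. The median log2 ratio was 0.06, and 0.0302 with a floor of 50 FPKM, 0.0296 on TPM and 0.0754 without shared loci. Lists of at least 5 members in which over 50% rose numbered 16, against 5, 5, 4 and 5 under the normal test as measured, centred, length-corrected and on TPM. Lists in which over 50% fell numbered 5, against 2 at a q under 0.01 and 1 under each form of the normal test. A lower q cutoff, an added 2-fold rule and a higher floor leave fewer calls by construction. The normal test does not, as 986 of its 996 calls without centring were also called by the authors' q. The cause of the other shifts was not tested. Of the gene results under alternatives, 916 kept their status as called or not called, 203 lost the call and 0 reversed direction while called. Genes not called under either test could change sign within the 916. MAC1, for example, had a log2 ratio of 0.02 as measured and -0.04 after centring. Depth is unknown, so no detection limit can be given.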
